A study of Mus musculus with 9 samples.

Results

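The 9 genes described here, Ptprc, Cd48, Cd52, Cd53, Laptm5, Coro1a, Dock2, Prkcb and Pik3ap1, encode membrane and signalling proteins that most blood-derived immune cells share. They were chosen by their measured values in these libraries, as genes lower in diabetic than in control hearts and higher again with spermine, and they are 9 of the 22851 genes in the deposited count table. What that choice used is therefore given as a description. Where the text counts how many of the 9 genes passed a limit, that count rests on the values that chose them and tests nothing. RNA was sequenced from 9 libraries of C57BL/6 mouse heart, described by the study as male, with 3 libraries in each of 3 groups. CK mice were controls that received citrate buffer. DCM mice, a model of diabetic cardiomyopathy, received streptozotocin once, which destroys the insulin-producing beta cells, and their hearts were taken 12 weeks later. SPM mice received the polyamine spermine before the same streptozotocin injection and again through the 12 weeks after it. No spermine group without diabetes was analysed here.

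Leukocytes reach the myocardium from the blood or reside in it, and resident macrophages are the most numerous of them in a healthy heart. Their receptors signal through tyrosine phosphorylation that the phosphatase CD45, the product of Ptprc, sets by acting on Src family kinases. Downstream, adaptors and lipid kinases, protein kinase C, and the Rac and actin machinery turn that signal into adhesion, movement and gene expression. Most of the 9 genes are used by nearly all leukocyte lineages, so in a piece of tissue their RNA tracks leukocytes in general rather than a named type. In these bulk libraries fewer leukocytes and less RNA per leukocyte cannot be told apart.

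Total counts per library lay between 29901300 and 39718680. The tissue label names heart myocardium whereas the deposited extraction protocol speaks of retinas. The 5 cardiomyocyte markers that could be analysed summed to 26000 to 38100 normalized CPM (counts per 1000000 counts of a library after TMM scaling) and the 7 retina markers to 0.422 to 1.82. The study's methods give both 3 mice per group and pools of 6 hearts, so whether a library is a mouse or a pool is not settled, and the spread between libraries may be partly technical. SPM replicate 2 stood apart from the other libraries, since it lay between the other SPM libraries for 69.0% of 11990 genes, against 14.4% to 41.0% for every other library within its group. Of the 2656 genes without a count in SPM replicates 1 and 3, SPM replicate 2 had a count in 1.13%, against 15.6% to 35.0% for the other libraries. Its counts were matched by a blend of 46% SPM replicate 1 with SPM replicate 3 to within counting noise, with a median squared deviation of 0.878 times the noise, whereas the next best of 252 combinations of libraries gave 2.62. The main SPM results are therefore also given without that library.

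Promoter sequences are shown because the 9 genes were picked for moving together, and the purine-rich letters GAGGAA form the core of the element bound by PU.1, a transcription factor of the ETS family found in myeloid and B cells. RefSeq (GRCm38.p6) gave a start site for 8 of the 9 genes, with Cd52 not matched. The 250 bases before each start were searched for GAGGAA on both strands, which reads TTCCTC when the motif is on the other strand. The 5 genes with a match are printed below 5′ to 3′ on the strand of the gene, with the matched letters in capitals, and a window of Coro1a without a match is shown for contrast.
Ptprc chr1:138175306-138175555 (minus strand): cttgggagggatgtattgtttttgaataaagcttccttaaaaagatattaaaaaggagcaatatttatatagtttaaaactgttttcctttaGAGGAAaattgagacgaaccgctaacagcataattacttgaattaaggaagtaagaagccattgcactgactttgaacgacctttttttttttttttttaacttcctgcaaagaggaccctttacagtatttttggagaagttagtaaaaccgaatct
Cd53 chr3:106790150-106790399 (minus strand): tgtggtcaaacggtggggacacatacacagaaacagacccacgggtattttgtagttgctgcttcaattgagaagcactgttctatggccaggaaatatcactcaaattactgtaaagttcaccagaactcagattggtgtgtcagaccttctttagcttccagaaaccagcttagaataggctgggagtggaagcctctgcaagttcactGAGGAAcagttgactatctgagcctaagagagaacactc
Laptm5 chr4:130913066-130913315 (plus strand): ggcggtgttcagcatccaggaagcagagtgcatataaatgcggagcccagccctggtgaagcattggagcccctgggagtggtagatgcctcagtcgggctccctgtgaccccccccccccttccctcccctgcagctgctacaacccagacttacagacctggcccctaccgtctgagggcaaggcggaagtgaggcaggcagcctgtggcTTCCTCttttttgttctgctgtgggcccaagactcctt
Dock2 chr11:34783906-34784155 (minus strand): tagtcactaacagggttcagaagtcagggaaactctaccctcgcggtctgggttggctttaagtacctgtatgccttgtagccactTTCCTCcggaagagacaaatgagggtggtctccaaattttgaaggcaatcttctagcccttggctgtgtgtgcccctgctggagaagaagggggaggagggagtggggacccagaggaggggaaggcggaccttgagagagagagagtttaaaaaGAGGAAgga
Pik3ap1 chr19:41385103-41385352 (minus strand): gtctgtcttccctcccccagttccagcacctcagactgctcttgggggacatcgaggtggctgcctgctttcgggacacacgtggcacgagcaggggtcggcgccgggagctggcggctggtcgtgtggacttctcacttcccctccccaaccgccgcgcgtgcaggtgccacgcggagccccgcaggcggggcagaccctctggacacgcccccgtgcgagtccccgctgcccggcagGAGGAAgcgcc
Coro1a chr7:126704817-126705066 (minus strand): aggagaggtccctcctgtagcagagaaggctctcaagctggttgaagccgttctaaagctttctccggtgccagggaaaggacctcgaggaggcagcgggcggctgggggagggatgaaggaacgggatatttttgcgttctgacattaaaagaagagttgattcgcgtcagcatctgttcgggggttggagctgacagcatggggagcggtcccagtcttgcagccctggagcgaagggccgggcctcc
The match began at position -158 in Ptprc, -39 in Cd53, -38 in Laptm5 and -11 in Pik3ap1, counting the base before the start site as -1, and Dock2 held a match at -164 and another at -9. Cd48, Prkcb, both Coro1a windows and a second Ptprc window held none. The share was 62.5% of the 8 genes, against 25.9% of 27025 genes, and 5 of their 10 windows, against 23.3% of 32851 windows of the same length in the table. A match is a description of the letters and not a binding site.

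Membrane proteins come first. Ptprc was measured at 12.7, 12.9 and 8.04 normalized CPM in CK replicates 1 to 3. It stood at 8.24, 2.81 and 6.30 in DCM and at 13.9, 12.6 and 12.2 in SPM. DCM replicate 2 was far below every other library, DCM replicate 1 was just above CK replicate 3, so those groups overlapped, and every SPM library exceeded every DCM library. As a log2 fold change Ptprc was -0.94 (SE 0.30) in DCM compared to CK, 1.14 (SE 0.28) in SPM compared to DCM, and 1.16 for the latter without SPM replicate 2.

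Cd48 encodes a lipid-anchored ligand of the SLAM family that binds CD244 and CD2. Its CPM was 5.77, 6.00 and 4.61 in CK, 3.82, 2.91 and 2.55 in DCM, and 7.42, 6.14 and 4.72 in SPM. All DCM libraries were below all CK and all SPM libraries. The log2 fold change was -0.81 (SE 0.21) in DCM compared to CK and 0.97 (SE 0.21) in SPM compared to DCM, and it was again 0.97 without SPM replicate 2.

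Cd52 encodes a short lipid-anchored glycoprotein of lymphocytes and myeloid cells, and its highest library was 7.66 times its lowest, the largest such ratio of the 9 genes. It was measured at 11.2, 7.56 and 6.45 CPM in CK, at 4.32, 1.46 and 3.63 CPM in DCM, with SPM at 8.16, 6.40 and 5.63. The groups did not overlap between DCM and either other group, and DCM replicate 1 was 2.97 times as high as DCM replicate 2, which had 43 counts. The mean level in DCM was 37.4% of that in CK, the lowest share of the 9 genes, with a log2 fold change of -1.40 (SE 0.32). The value for SPM compared to DCM was 1.08 (SE 0.31), and 1.12 without SPM replicate 2.

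Cd53 encodes a tetraspanin, a membrane organizer of leukocytes. Its values were 11.9, 10.5 and 9.70 CPM in CK, 7.31, 4.84 and 7.76 CPM in DCM, with SPM at 15.6, 13.5 and 9.40. DCM lay below the other groups without overlap, and SPM replicates 1 and 2 lay above every CK library while SPM replicate 3 lay below all of them. The log2 fold change was -0.68 (SE 0.17) in DCM compared to CK and 0.94 (SE 0.21) in SPM compared to DCM, or 0.91 without SPM replicate 2.

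Laptm5 encodes a lysosomal membrane protein that limits antigen receptor levels at the cell surface. It was measured at 63.8, 51.9 and 40.8 CPM in CK, 37.0, 27.7 and 32.5 CPM in DCM, with SPM at 50.3, 44.3 and 38.0. The groups were separated by a narrow margin, with DCM replicate 1 just below SPM replicate 3 and CK replicate 3. Its log2 fold change was -0.69 (SE 0.15) in DCM compared to CK. For SPM compared to DCM it was 0.45 (SE 0.12) with or without SPM replicate 2, a fold of 1.36 and the smallest of the 9 genes.

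**Figure D1:**
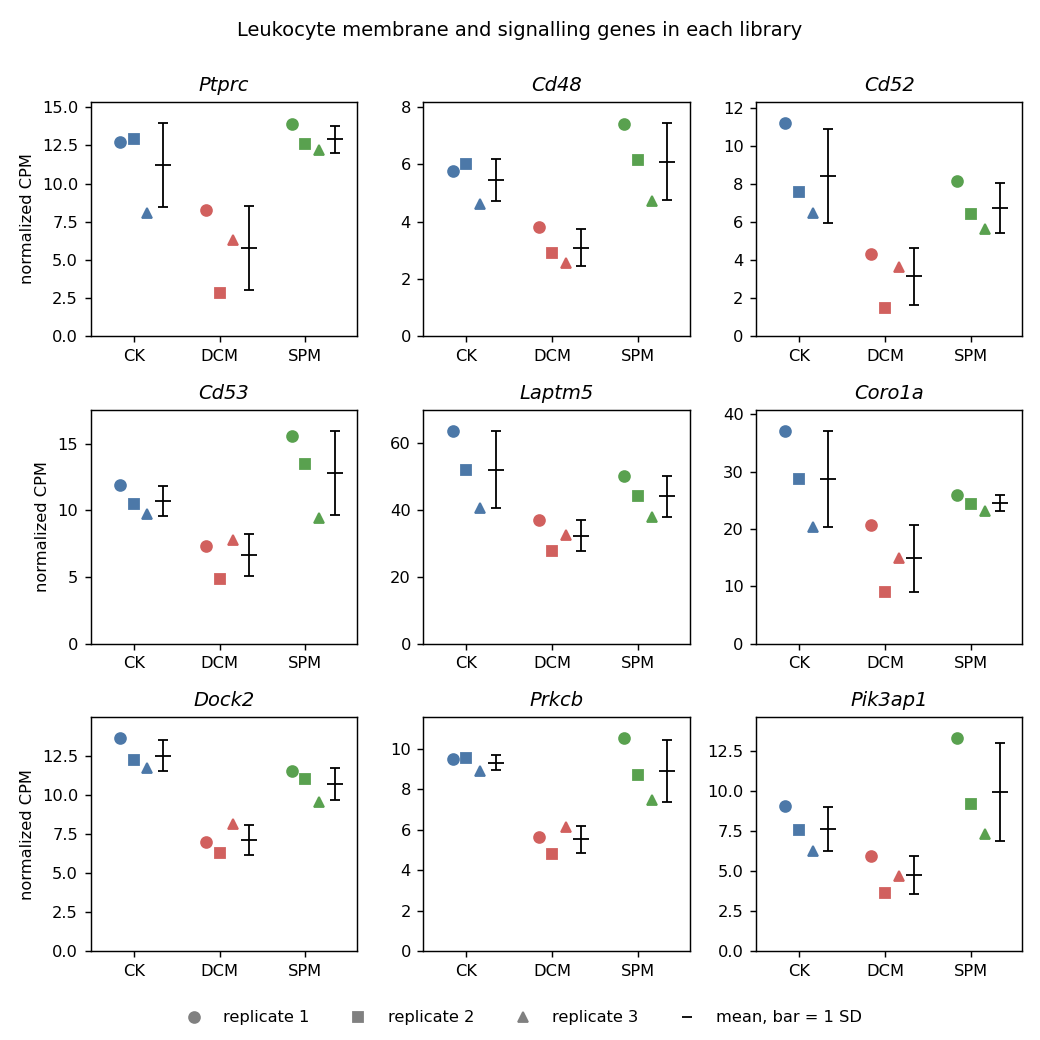
Normalized CPM (y axis, from 0) of each of the 9 genes in the 9 libraries, with the replicates of each group as separate symbols and the group mean with 1 SD in black. For every gene the 3 DCM libraries lie below the 3 SPM libraries, and DCM replicate 2 is the lowest library of its group for 8 of the 9 genes, while SPM replicate 1 is the highest and SPM replicate 3 the lowest of theirs for all 9.

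Among the signalling and cytoskeletal genes, Coro1a encodes coronin 1A, an actin regulator of leukocyte migration and T cell survival. Its CPM was 37.1, 28.7 and 20.3 in CK, 20.6, 8.94 and 15.0 in DCM, and 25.9, 24.4 and 23.2 in SPM. CK ranged widely, its lowest library was just under DCM replicate 1, and SPM was the tightest group. The log2 fold change was -0.94 (SE 0.25) in DCM compared to CK and 0.72 (SE 0.22) in SPM compared to DCM, the latter also without SPM replicate 2.

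Dock2 encodes the Rac activator that drives leukocyte chemotaxis. It stood at 13.6, 12.2 and 11.7 CPM in CK, at 6.98, 6.26 and 8.12 CPM in DCM, with SPM at 11.5, 11.0 and 9.57. It was the only one of the 9 genes whose SPM libraries all lay below all CK libraries, by a narrow margin, and DCM was below both groups. The log2 fold change was -0.81 (SE 0.14) in DCM compared to CK, 0.59 (SE 0.13) in SPM compared to DCM, and 0.57 for the latter without SPM replicate 2.

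Prkcb encodes protein kinase C beta, which links antigen receptors to NF-kappa B and is also studied in diabetic tissue. Its values were 9.50, 9.54 and 8.89 CPM in CK, 5.63, 4.81 and 6.12 CPM in DCM, with SPM at 10.5, 8.68 and 7.45. CK was tight, DCM lay below both groups, and SPM ran from below to above CK. The log2 fold change was -0.75 (SE 0.14) in DCM compared to CK and 0.68 (SE 0.16) in SPM compared to DCM, or 0.70 without SPM replicate 2.

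Pik3ap1 encodes BCAP, an adaptor that joins B cell and Toll-like receptors to PI3K. It was measured at 9.05, 7.61 and 6.29 CPM in CK, 5.95, 3.62 and 4.72 CPM in DCM, with SPM at 13.3, 9.23 and 7.35. No DCM library reached any CK or SPM library, and SPM replicate 1 was 1.81 times above SPM replicate 3, the widest SPM ratio of the 9 genes. The log2 fold change was -0.68 (SE 0.20) in DCM compared to CK and 1.06 (SE 0.23) in SPM compared to DCM, or 1.11 without SPM replicate 2.

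Levels can be compared between genes only per length, so the deposited FPKM values were used for that. In CK the order of mean FPKM was Laptm5 at 21.0 ± 4.78 (SD, n = 3), Coro1a at 17.2 ± 5.16, Cd52 at 17.1 ± 5.10, Cd53 at 6.43 ± 0.723 and Cd48 at 4.81 ± 0.711. Below them came Pik3ap1 at 3.06 ± 0.576, Prkcb at 2.92 ± 0.149, Ptprc at 2.05 ± 0.521 and Dock2 at 2.04 ± 0.176. The leading 3 differed by less than their SDs, as did Pik3ap1 from Prkcb and Ptprc from Dock2, whereas Cd53 exceeded Cd48 and Cd48 exceeded Pik3ap1 by more than either SD. In DCM the mean FPKM was 12.2 ± 1.99 for Laptm5, 8.37 ± 3.42 for Coro1a, 6.02 ± 2.94 for Cd52, 1.09 ± 0.146 for Dock2 and 0.995 ± 0.487 for Ptprc. In SPM it was 16.6 ± 2.25, 13.7 ± 0.696, 12.8 ± 2.42, 1.63 ± 0.152 and 2.19 ± 0.149 for the same genes, and 16.5 ± 3.19, 13.7 ± 0.984, 13.1 ± 3.34, 1.60 ± 0.206 and 2.22 ± 0.205 without SPM replicate 2. Ptprc and Dock2 thus exchanged places at the foot of the order in DCM, by less than the SD of Ptprc, and in SPM Ptprc exceeded Dock2 by more than either SD, with or without SPM replicate 2.

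Summed over the 9 genes, the level was 175, 147 and 117 CPM in CK, 99.8, 63.3 and 86.6 CPM in DCM, with SPM at 157, 136 and 118. CK replicate 3 and SPM replicate 3 were nearly level, and every DCM library lay below both. These sums rested on 1870 to 5480 counts per library, and single genes on 43 to 2001. CK replicate 3 was the lowest of its group for all 9 genes.

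The comparison of DCM with CK addresses what diabetes changed in the heart. Since the 9 genes were selected on this contrast, the counts that follow are a description. The 9 log2 fold changes ran from -1.40 to -0.68 with a median of -0.81, whereas the median over all genes was -0.002. In the edgeR quasi-likelihood fit, with Benjamini-Hochberg adjustment over all genes, an adjusted p limit of 0.05 and a fold limit of 1.5, 7 were called lower, with Ptprc and Pik3ap1 outside. Over all 14402 genes tested, 2.31% were called lower and 2.03% higher, and at an unadjusted p below 0.05, without a fold limit, 12.6% were lower and 12% higher. For 7 of the 9 genes every DCM library was below every CK library, Ptprc and Coro1a being the exceptions, against 14.8% of all genes. Without DCM replicate 2, in which 8 of the 9 genes were lowest, 3 were called and the median was -0.66. Without CK replicate 1, 3 were called as well, without CK replicate 2, 4 were, and all 9 were lower in each case.

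The comparison of SPM with DCM sets mice given spermine before and after streptozotocin against mice given streptozotocin without spermine. An effect of spermine on the diabetes and one on the heart cannot be told apart in it. The 9 genes were selected on this contrast as well, so their counts are again a description. The 9 log2 fold changes ran from 0.45 to 1.14 with a median of 0.94, and the median over all genes was 0.006. Of the 9 genes, 8 were called higher, with Laptm5 under the fold limit, and every SPM library was above every DCM library for all 9. Dock2 passed the fold limit narrowly, at a log2 fold change of 0.59. It had 0.58 and was not called with DESeq2, RLE factors or the GC offset. Over all 14493 genes, 2.7% were called higher, 0.89% lower, and 19.7% had all SPM libraries above all DCM libraries. At an unadjusted p below 0.05, 16.8% were lower and 17.8% higher. Those shares were 9.95% and 12.1% without SPM replicate 2, and 0.0944% were called lower and 0.283% higher. Without SPM replicate 2 none of the 9 genes was called, all 9 had an unadjusted p below 0.05, and the median was 0.91. The count over all genes fell at the same time from 521 to 56. Without DCM replicate 2, 1 of the 9 genes was called and the median was 0.76, and without SPM replicate 1, 4 were and the median was 0.77. DESeq2 called 6, and limma on FPKM called 4. As the DCM libraries enter both comparisons, a low DCM library moves both in opposite directions.

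**Figure D2:**
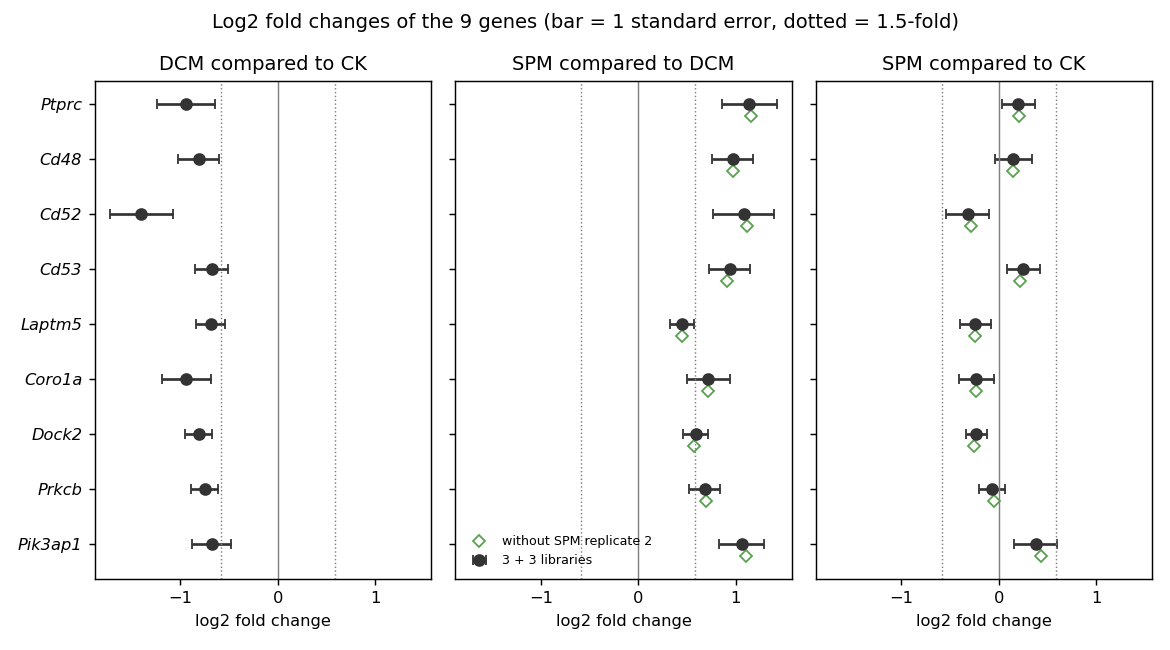
Log2 fold change (x axis) of each of the 9 genes in the 3 comparisons, with bars of 1 standard error, open diamonds for the value without SPM replicate 2 and dotted lines at a fold of 1.5. All values lie below 0 in DCM compared to CK and above 0 in SPM compared to DCM, and in SPM compared to CK they lie between -0.32 and 0.38 on both sides of 0.

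The remaining pair, SPM compared to CK, places the spermine group against the controls. Mean levels in SPM were 80.2% of CK for Cd52, 84.8% for Laptm5, 85.4% for Coro1a, 85.6% for Dock2, 95.5% for Prkcb, 112% for Cd48, 115% for Ptprc, 120% for Cd53 and 130% for Pik3ap1. Without SPM replicate 2 these shares ran from 82.2% for Cd52 to 135% for Pik3ap1. The log2 fold changes were -0.32 (SE 0.22) for Cd52, -0.23 (SE 0.11) for Dock2 and 0.38 (SE 0.22) for Pik3ap1, and the groups overlapped for every gene except Dock2. Dock2 was separated by a narrow margin, with SPM replicate 1 at 11.5 CPM and CK replicate 3 at 11.7. The share of all genes separated in this comparison was not counted. No member was called by edgeR, where 0 had an unadjusted p below 0.05, or by DESeq2 or limma on FPKM. Over all 14574 genes, 4.12% were called lower and 5.08% higher, or 2.28% and 2.9% without SPM replicate 2. The shares at an unadjusted p below 0.05 were 20.9% lower and 20% higher, or 14.5% and 14% without that library. A p that misses a limit does not show equal levels, and the standard errors of 0.11 to 0.22 leave room for differences of that size.

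GC content differed between the 9 genes and moved with this comparison. Ptprc, Cd53 and Cd48, with 39.4%, 40.0% and 42.0% GC in the longest transcript, were above CK in the mean, and Laptm5 and Coro1a, with 56.0% and 58.0%, were below it. Of the genes between these, Pik3ap1 with 51.3% was above CK, and Dock2, Cd52 and Prkcb with 49.0%, 51.0% and 52.9% were below it. Over all genes the rank correlation of log2 fold change with GC content was -0.366 in SPM compared to CK, -0.502 in SPM compared to DCM and 0.0602 in DCM compared to CK, across genes that are not independent replicates. The first 2 were -0.359 and -0.497 without SPM replicate 2. With each library's GC trend taken out as an offset, the SPM compared to CK value of Ptprc was -0.13, of Cd48 -0.07 and of Cd53 -0.05, so their direction turned, and that of Prkcb was 0.02 in place of -0.07. For these 4 genes the offset gave -0.12, -0.07, -0.09 and 0.04 without SPM replicate 2. Over all 9 genes the SPM compared to CK values ran from -0.26 to 0.44 with the offset, 7 lower and 2 higher. In the main fit they ran from -0.32 to 0.38, 5 lower and 4 higher. The offset left all 9 genes higher in SPM compared to DCM with a median of 0.78 and 3 called, and without SPM replicate 2 a median of 0.80 and 0 called, with 9 at an unadjusted p below 0.05. In DCM compared to CK it left a median of -0.79 with all 9 called. The part of GC content in the SPM results beyond these values was not tested.

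The 9 genes did not keep fixed proportions. Relative to Ptprc, the count of Laptm5 was 5.0, 4.04 and 5.07 in CK, 4.49, 9.84 and 5.15 in DCM, and 3.61, 3.51 and 3.13 in SPM. DCM replicate 2 was the highest library for 7 of the 8 ratios to Ptprc, with 1.04 for Cd48, 1.72 for Cd53, 3.18 for Coro1a, 2.23 for Dock2, 1.71 for Prkcb and 1.29 for Pik3ap1. Cd52 was the exception, at 0.518 there against 0.463 to 0.875 in the 9 libraries. Ptprc in that library rested on 83 counts. Dock2, Prkcb and Laptm5 were the steadiest genes in DCM, with a highest library 1.30, 1.27 and 1.34 times the lowest, and Cd52, Ptprc and Coro1a the least steady, at 2.97, 2.93 and 2.30 times. The ratio of Coro1a to Ptprc was close in the SPM libraries, at 1.85, 1.93 and 1.91, below the 2.23, 2.52 and 2.91 of the CK libraries. Coro1a and Laptm5 had the highest GC content of the 9 genes, at 58.0% and 56.0%, and Ptprc the lowest, at 39.4%. The ratios were taken without the GC offset, and the part of GC content in them was not tested.

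**Figure D3:**
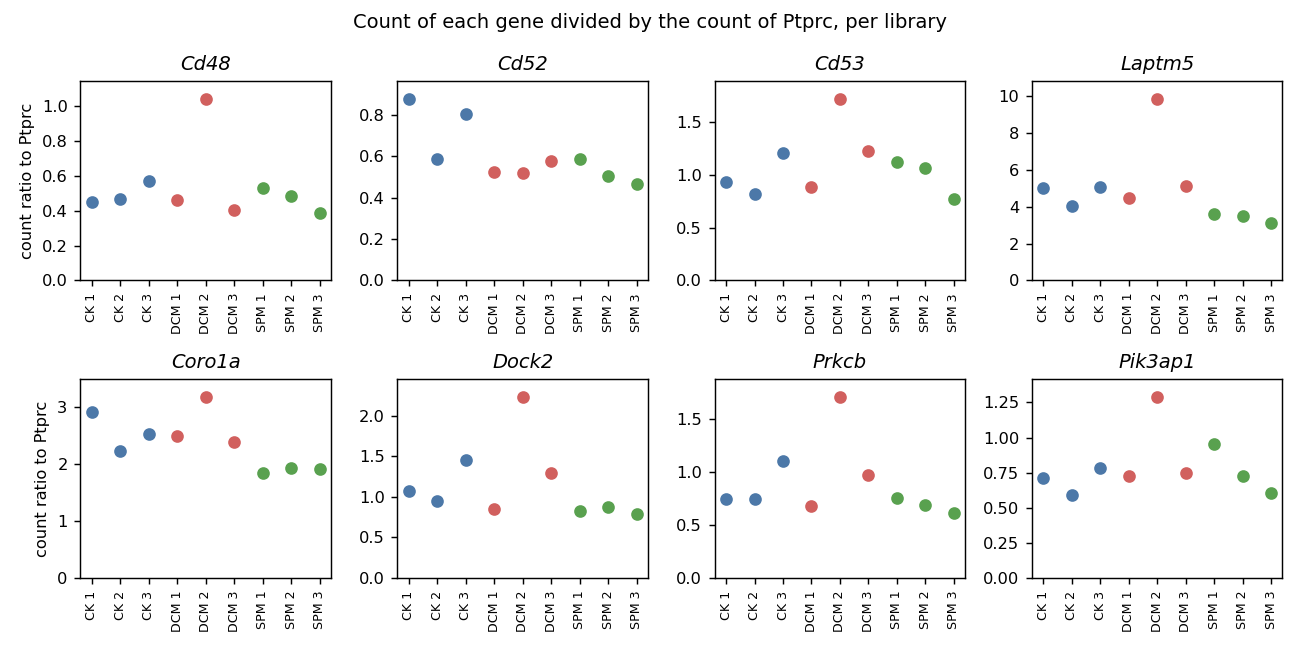
Count of each of the other 8 genes divided by the count of Ptprc in the same library (y axis, from 0), for the 9 libraries on the x axis. DCM replicate 2 is the highest point for every gene but Cd52, and the Laptm5 and Coro1a ratios of the 3 SPM libraries lie below those of the 6 others.

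Per length, the 9 genes also divided their summed FPKM differently between groups. Cd52 held 22.1% of it in CK, 14.9% in DCM and 19.5% in SPM. Laptm5 held 27.4%, 32.6% and 25.4%, and Pik3ap1 4.02%, 4.69% and 5.60%, in the same order. The SPM shares of these 3 genes were 19.8%, 25.3% and 5.74% without SPM replicate 2.

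To see whether the pattern reached other genes, 3 companion lists were read. All lists were drawn up with earlier results of these data known, and their counts are set beside the shares over all genes given above, for adjusted and unadjusted limits alike. From here on, a listed gene that fell or rose is one that was called lower or called higher. The closest are 21 other general leukocyte genes, of which 20 entered the tests. In DCM compared to CK 4 of them fell and 0 rose, the median log2 fold change was -0.62, with 18 of 20 below 0. At an unadjusted p below 0.05 the count was 12 lower and 0 higher, and DESeq2 called 5 lower. The 4 that fell were Lcp1, the actin bundler L-plastin, with a log2 fold change of -0.74 (SE 0.14, edgeR adjusted p = 0.00577), Arhgap30, a GTPase-activating protein (-0.73, SE 0.16, adjusted p = 0.0111), Selplg, the selectin ligand PSGL-1 (-0.84, SE 0.22, adjusted p = 0.0294), and Sash3, a lymphocyte adaptor (-0.92, SE 0.25, adjusted p = 0.0358). The gene of the list with the highest mean CPM, Lsp1, an actin-binding leukocyte protein, had a log2 fold change of 0.04 (SE 0.09), and Itgb2, the common beta chain of leukocyte integrins, -0.14 (SE 0.16), neither called.

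Of the 20 genes, 6 rose and 0 fell in SPM compared to DCM, with a median of 0.52, and 13 were higher and 0 lower at an unadjusted p below 0.05. Spn, the leukocyte sialoprotein CD43, had 1.60 (SE 0.22, edgeR adjusted p = 0.00813), with 10.9, 8.59 and 5.89 CPM in SPM above 3.09, 2.40 and 2.84 CPM in DCM. Lcp1 had 0.85 (SE 0.16, adjusted p = 0.0127), Cd84, a SLAM family receptor, 0.94 (SE 0.18, adjusted p = 0.0138), and Plek, pleckstrin, 0.91 (SE 0.18, adjusted p = 0.0147). Itgal, the alpha chain of LFA-1, had 0.91 (SE 0.22, adjusted p = 0.0238) and Myo1g, a leukocyte myosin, 0.66 (SE 0.20, adjusted p = 0.046). Lcp1 was the gene called in both comparisons. Without SPM replicate 2 Spn was the only one called (edgeR adjusted p = 0.0282), with the median at 0.53. Ptpn7 and Parvg were lower and Plek and Cd84 higher in SPM compared to CK. Ptpn7 and Parvg are named after their values were seen, and none of the 4 was called without SPM replicate 2, where 2 were lower and 2 higher at an unadjusted p below 0.05.

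Direct signalling partners of the 9 proteins make up the second list, with 33 of 35 genes tested. In DCM compared to CK 4 fell and 1 rose, with a median of -0.48 and 27 of 33 below 0. At an unadjusted p below 0.05 the count was 20 lower and 2 higher. Nckap1l, the leukocyte subunit of the WAVE complex that acts below DOCK2 and Rac, fell by 0.87 on the log2 scale (SE 0.13, edgeR adjusted p = 0.000964), from 26.7, 25.6 and 19.2 CPM in CK to 12.8, 12.3 and 13.9 CPM in DCM, with no overlap. Blnk, an adaptor of the B cell receptor, had -0.93 (SE 0.20, adjusted p = 0.01), Cd247, the T cell receptor zeta chain, -1.01 (SE 0.23, adjusted p = 0.0162), and Lck, a T cell Src kinase and substrate of CD45, -1.54 (SE 0.43, adjusted p = 0.0415). Pik3r1, the widely expressed p85 alpha subunit of PI3K, rose by 0.95 (SE 0.13, adjusted p = 0.00061), from 65.4, 68.4 and 85.9 CPM in CK to 117, 140 and 168 CPM in DCM. The other partners of highest mean CPM, Nedd4, a ubiquitin ligase that binds LAPTM5, and Rac1, the GTPase found in most cells, had 0.08 (SE 0.07) and 0.17 (SE 0.07), neither called.

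Of the 33 partners, 5 rose and 0 fell in SPM compared to DCM, with a median of 0.18, and 9 were higher and 1 lower at an unadjusted p below 0.05. Cd244a, the receptor for CD48, had 1.51 (SE 0.34, edgeR adjusted p = 0.0206) with means of 0.422 CPM in DCM and 1.21 in SPM. Fgr, a Src kinase of myeloid cells, had 1.33 (SE 0.32, adjusted p = 0.0235). Vav1, a Rac activator, had 0.61 (SE 0.18, adjusted p = 0.0412) and Rac2, the leukocyte Rac, 0.63 (SE 0.19, adjusted p = 0.0463). No partner was called in both comparisons. None was called without SPM replicate 2 by edgeR, where 9 were higher and 1 lower at an unadjusted p below 0.05. Lck, Cd247 and Blnk were lower and Fgr and Pik3r1 higher in SPM compared to CK, so the T and B cell receptor genes that fell in DCM were also below CK in SPM. Without SPM replicate 2 that comparison called 2 partners lower and 1 higher.

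**Figure D4:**
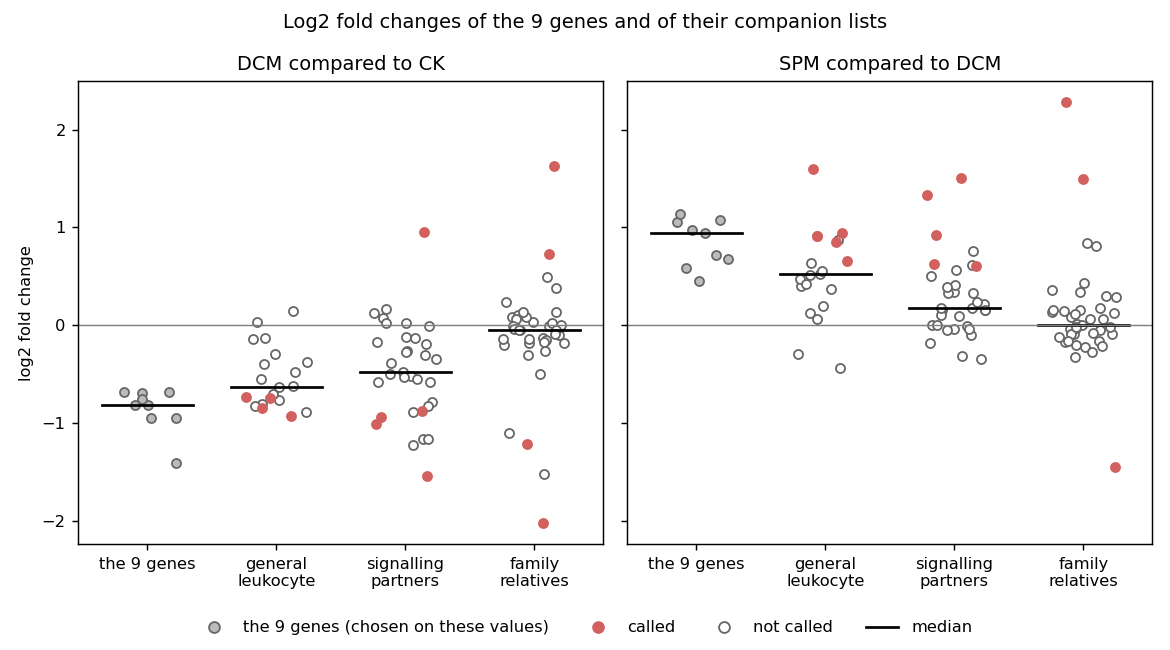
Log2 fold change (y axis) of each tested gene of the 9 genes and of the 3 companion lists, in DCM compared to CK (left) and SPM compared to DCM (right). Filled red points passed the test, the 9 genes are grey since they were chosen on these values, and black lines are medians, which are -0.81, -0.62, -0.48 and -0.05 on the left and 0.94, 0.52, 0.18 and 0.00 on the right.

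Relatives from the same protein families, most of them expressed outside leukocytes, form the third list. Of them 39 entered the test of DCM compared to CK, where 2 fell and 2 rose, and the median was -0.05. Slamf9 and Slamf8, SLAM family members of myeloid cells and relatives of Cd48, fell by 1.21 (SE 0.18, edgeR adjusted p = 0.00134) and 2.02 (SE 0.56, adjusted p = 0.0391) on the log2 scale. Tspan4, a widely expressed tetraspanin, rose by 0.73 (SE 0.08, adjusted p = 0.000191), against the lower values of its relative Cd53. Coro1b, a coronin of many cell types, rose by 1.63 (SE 0.38, adjusted p = 0.017), with CPM of 3.19, 3.15 and 9.08 in DCM against 1.78, 1.70 and 1.49 in CK, so DCM replicate 3 carried most of its rise. Without DCM replicate 3, 1 relative fell and 1 rose. For SPM compared to DCM 40 entered the test, 2 rose and 1 fell, and the median was 0.00. Slamf8 rose by 2.28 (SE 0.49, adjusted p = 0.0178), Dock3, a neuronal relative of Dock2, by 1.49 (SE 0.43, adjusted p = 0.0399), and Coro1b had -1.44 (SE 0.40, adjusted p = 0.0382). None was called without SPM replicate 2, where 7 were higher and 2 lower at an unadjusted p below 0.05, and DESeq2 with all libraries called 2 higher and 1 lower. Slamf8 and Dock3 lay at 0.229 and 0.224 CPM in DCM. The relatives of highest mean CPM, Laptm4a, Cd151 and Cd81, had log2 fold changes of 0.02 (SE 0.07), -0.01 (SE 0.09) and -0.05 (SE 0.07) in DCM compared to CK. Against CK, in SPM, Slamf7, named after its value was seen, was lower and Tspan4 higher, and without SPM replicate 2 it was 0 lower and 1 higher.

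Markers of most leukocyte types were lower in DCM compared to CK. Of those tested, 11 of 14 macrophage, 5 of 6 monocyte and 5 of 6 dendritic cell markers were lower. So were 10 of 11 T cell, 6 of 6 NK cell and 8 of 8 B cell markers. All 5 neutrophil markers were higher, and 2 of 5 mast cell markers were lower. In SPM compared to DCM the types differed, with 14 of 14 macrophage, 7 of 7 neutrophil, 5 of 6 monocyte and 5 of 5 NK cell markers higher. There 8 of 11 T cell, 3 of 8 B cell, 2 of 5 dendritic cell and 1 of 5 mast cell markers were higher. Genes named here for passing the test were named after their values were seen. The gene said to lead a list is the one with the highest mean CPM, which is not a comparison per length. Of 14 macrophage markers, Adgre1, Cx3cr1 and Fcgr1 fell in DCM compared to CK while Lyve1 rose, and 7 rose in SPM compared to DCM, among them Adgre1 (log2 fold change 1.15, SE 0.23, edgeR adjusted p = 0.0147) and C1qa (0.73, SE 0.19, adjusted p = 0.0297). Their summed level was 544 to 709 CPM in CK, whereas DCM lay at 488 to 559 and SPM at 583 to 886. Csf1r, the receptor that macrophages need for survival, led the list and had -0.49 (SE 0.11) and 0.23 (SE 0.10) in those comparisons, neither past both limits. Without SPM replicate 2, 1 macrophage marker was called in SPM compared to DCM, with 9 higher and 0 lower at an unadjusted p below 0.05. Of 6 monocyte markers, Vcan fell in DCM compared to CK, and Ccr2, Chil3 and Plac8 rose in SPM compared to DCM, where 1 was called without SPM replicate 2. Their sum, mostly Fn1, which fibroblasts also express, was 197 to 207 CPM in CK, whereas DCM lay at 145 to 188 and SPM at 153 to 203.

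Lymphocyte markers were low, and none passed the test in SPM compared to DCM. The 12 T cell markers summed to 23.8 to 31.2 CPM in CK, whereas DCM lay at 15.1 to 19.1 and SPM at 15.5 to 18.2, and most of that was Thy1, which other cells also express. Of the 11 tested, Thy1 alone fell in DCM compared to CK, and 0 moved in SPM compared to DCM by edgeR, DESeq2 or limma, with 1 lower and 0 higher at an unadjusted p below 0.05 in edgeR. The 9 B cell markers summed to 36.1 to 81.4 CPM in CK, whereas DCM lay at 21.9 to 40.5 and SPM at 30.1 to 35.0. All 8 tested were lower in DCM compared to CK, with a median log2 fold change of -1.22. Of these, 5 had an unadjusted p below 0.05, and Ighm alone was called. In SPM compared to DCM 5 were lower and 3 higher, with a median of -0.12. There 0 of them were called by any of the 3 tools, with 1 lower and 0 higher at an unadjusted p below 0.05 in edgeR. In SPM compared to CK 4 were called lower, or 1 without SPM replicate 2. Without that library 0 T, B or NK cell markers were called in SPM compared to DCM by edgeR, and 0 had an unadjusted p below 0.05. The 7 NK cell markers summed to 5.77 to 11.4 CPM in CK, whereas DCM lay at 2.74 to 5.83 and SPM at 5.56 to 5.79. All 6 tested were lower in DCM compared to CK, with a median of -1.24. Of these, 3 had an unadjusted p below 0.05, and Gzma alone was called. In SPM compared to DCM all 5 tested NK cell markers were higher, with a median of 0.43, 2 at an unadjusted p below 0.05 and 0 called. Il2rb, which led them, was at 3.26 CPM in CK, 2.15 in DCM and 2.57 in SPM.

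The neutrophil alarmins S100a9 and S100a8, 2 of 5 neutrophil markers tested, rose in DCM compared to CK, by 1.74 (SE 0.35, edgeR adjusted p = 0.0082) and 1.20 (SE 0.33, adjusted p = 0.0394), and 6 of 7 tested rose in SPM compared to DCM, with S100a9 at 1.36 (SE 0.37, adjusted p = 0.0342). Their sum was 5.68 to 25.9 CPM in CK, whereas DCM lay at 13.0 to 29.2 and SPM at 31.8 to 64.4, so CK and DCM overlapped while SPM lay above both. That overlap rested on Ltf, named after its values were seen, which gave 16.9 CPM in CK replicate 2 and 0.223 and 0.0649 in the other CK libraries. Summed without Ltf, CK lay at 5.61 to 11.8, DCM at 12.9 to 29.2 and SPM at 31.6 to 63.8. Without SPM replicate 2, 1 of the 7 was called, with all 7 higher at an unadjusted p below 0.05. The 6 dendritic cell markers, led by Zbtb46, which endothelial cells also express, summed to 36.5 to 42.3 CPM in CK, whereas DCM lay at 31.5 to 38.2 and SPM at 25.9 to 31.3. None of them was called in DCM compared to CK or SPM compared to DCM by edgeR, DESeq2 or limma, with 1 at an unadjusted p below 0.05 in each by edgeR, and likewise 0 called and 1 lower without SPM replicate 2. Of 6 mast cell markers, Kit, which led them, fell in DCM compared to CK and Cpa3 rose in SPM compared to DCM, the latter not called without SPM replicate 2.

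**Figure D5:**
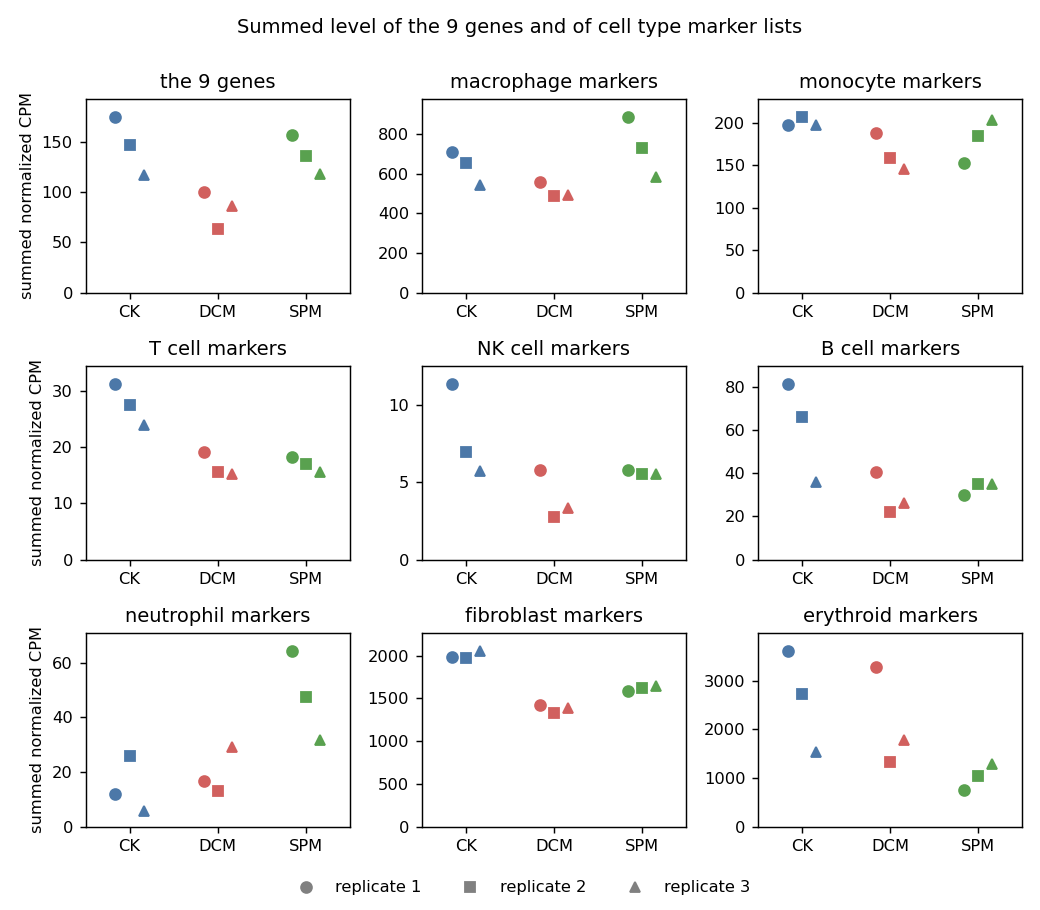
Summed normalized CPM (y axis, from 0) of the 9 genes and of 8 marker lists in the 9 libraries, with replicates as separate symbols. The macrophage sum of DCM, at 488 to 559, overlaps that of CK, at 544 to 709, and lies below that of SPM, the T and B cell sums in SPM are 15.5 to 18.2 and 30.1 to 35.0, and the neutrophil sum is highest in SPM.

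Other tissue components moved with the groups too. The 6 fibroblast markers summed to 1970 to 2060 CPM in CK, whereas DCM lay at 1330 to 1420 and SPM at 1590 to 1650, with Col1a1, Col1a2 and Col3a1 falling in DCM compared to CK and Dcn, which led them, at -0.04 (SE 0.08). In SPM compared to DCM Dcn had 0.36 (SE 0.08), Col1a1 -0.17 (SE 0.14), Col1a2 -0.10 (SE 0.12) and Col3a1 0.04 (SE 0.21). None of the 6 was called there, with 3 higher and 0 lower at an unadjusted p below 0.05, or 2 and 0 without SPM replicate 2. The 7 endothelial markers, led by Cdh5, summed to 1860 to 2140 CPM in CK, whereas DCM lay at 1760 to 1920 and SPM at 1620 to 1760. All 4 erythroid markers, led by Hbb-bs, fell in SPM compared to DCM, from a sum of 1330 to 3280 CPM to one of 758 to 1290 CPM, and none of them was called without SPM replicate 2 or by DESeq2 or limma, though all 4 had an unadjusted p below 0.05. For the 6 liver markers, led by Alb, the sum ranged from 13.6 to 47.2 CPM across the CK libraries. Across the DCM libraries it ranged from 27.3 to 31.5 CPM. SPM replicate 1 had a liver sum of 346 CPM, SPM replicate 2 one of 172 and SPM replicate 3 one of 30.6. The 9 genes had the same order within SPM. A library close to a blend of the others lies between them for either sum, so that shared order shows little. Within CK and within DCM the liver sum and the sum of the 9 genes ordered the libraries differently. Mitochondrial transcripts took 13.7% to 16.2% of the CK counts, 15.5% to 18.9% of those of DCM and 21.0% to 21.1% of those of SPM. Cardiomyocyte markers, led by Myh6, had 0 of 5 called in DCM compared to CK and in SPM compared to DCM by edgeR, DESeq2 or limma, with 1 and 2 at an unadjusted p below 0.05 in edgeR, and the latter was 0 called and 1 at an unadjusted p below 0.05 without SPM replicate 2. The part of these components in the values of the 9 genes was not tested.

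Finally, the genes whose log2 CPM over the 9 libraries was most like the mean standardized profile of the 9 genes were listed, among 12609 genes with a mean of at least 1 CPM. The 9 genes themselves had a Pearson r of 0.924 to 0.971 with that mean, of which each is a part. The 10 other genes with the highest r included Arpc5 and Tlr2 (0.978 each), Lcp1 (0.971), Mpeg1 (0.968), Cybb (0.967), Aif1 (0.964), Hcls1 and Themis2 (0.959 each) and Atp8b1 (0.955). All points share the 9 libraries and their depth, and the groups themselves set much of the profile, so these r are descriptions. Ranked without SPM replicate 2, 9 of the 10 genes were again among the leading 10. Cybb encodes the catalytic subunit of the phagocyte oxidase, Mpeg1 perforin-2 and Aif1 the protein IBA1. Arpc5, a subunit of the actin-nucleating Arp2/3 complex found in most cells, was at 57.9 CPM in CK, 46.3 in DCM and 59.5 in SPM.

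Coordinates of the 9 genes in the GENCODE M21 annotation place 2 of them, Ptprc and Cd48, on chromosome 1, 2, Laptm5 and Cd52, on chromosome 4, and 2, Coro1a and Prkcb, on chromosome 7. Cd53 lies on chromosome 3, Dock2 on 11 and Pik3ap1 on 19. Exons of Coro1a share 26 bases with Bola2, those of Cd52 share 172 with Crybg2 and those of Dock2 share 460 with 4930403D09Rik, each on the opposite strand. Crybg2 had 1 count over all 9 libraries and Bola2 at most 487 in a library. Since use of strand in counting is not given in the sources used here, reads in those stretches cannot be assigned to either gene.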

How the data were processed

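The deposited table holds the authors' counts, whole numbers for 22851 genes in 9 libraries, 3 each of CK, DCM and SPM. The authors also deposited FPKM values, each of which is the count scaled by a fixed gene length and by the library total. The submitters' processing notes name Bowtie 0.12.2 and the builds mm8 and mm9 without a role. For the counting tool and its strand setting, the entry is "not given in the sources used here". Of the identifiers, 22820 were named from GENCODE M21 and 31 were not.

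Each pair of groups was fitted with its own 6 libraries in edgeR 4.0.16 under R 4.3.3 (filterByExpr, TMM, quasi-likelihood F test, Benjamini-Hochberg over all genes). A call needed an adjusted p under 0.05 together with a fold of 1.5 or more. Standard errors were computed as the absolute log2 fold change over the root of F. Normalized CPM used TMM factors of 0.967 to 1.05 over the 9 libraries, and the common biological coefficient of variation was 0.122. The steps were tested on simulated data. The likeness ranking used log2 of CPM plus 0.5.

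The 9 genes and all lists were chosen with earlier results of these data known. The text names the 9 genes, the 3 genes of highest mean CPM and every called gene of each companion list, the gene of highest mean CPM of each marker list and the 10 genes most like the 9, and says where it names others. Some genes that this rule would name are not reported here. The listed genes Lcp2, Evi2a, Evi2b, Gmfg, Ly9, Ms4a1, Actc1, Pln, Tcf21, Alas2, Prph2 and Rpe65 were not analysed here.

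Replicate numbers showed no clear pairing of the libraries, with residual correlations of -0.0746 to 0.205 between same-numbered libraries and -0.284 to 0.217 between others. With 3 libraries per group these values cannot exclude a pairing. The alternatives were DESeq2 1.42.0, RLE factors, 2 other low-count filters (none, or 1 CPM in 3 libraries), no limit on the fold, a joint fit of the 9 libraries, a replicate block, limma 3.58.1 fitted to log2(FPKM + 0.1), a GC offset (lowess span 0.3), the block with that offset, and leaving out each library. The GC offset without SPM replicate 2 was added after seeing the data. Figures used Python 3.11.15 and matplotlib 3.10.9.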

Additional observations from a re-analysis of the deposited data

How the results depend on the processing

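The median log2 fold change of the 9 genes kept its direction in DCM compared to CK and in SPM compared to DCM under every alternative run, and moved by less than the spread between libraries. The number of the 9 genes called did not hold as well, with 3 to 9 in DCM compared to CK, 0 to 8 in SPM compared to DCM, and 0 in SPM compared to CK throughout, when 1 library was left out. In SPM compared to DCM the GC offset left 3 of the 9 genes called and limma on FPKM 4. With 1 library left out of DCM compared to CK, 1 to 8 general leukocyte genes, 3 to 11 signalling partners and 2 to 3 family relatives were called. The counts were 1 to 9, 0 to 6 and 0 to 3 in SPM compared to DCM, and 0 to 4, 3 to 5 and 1 to 2 in SPM compared to CK. Without a low-count filter DCM compared to CK gave 9 general leukocyte genes and 8 signalling partners, and without a fold-change limit 9 partners. In SPM compared to DCM the partners called were 1 with the GC offset, 3 with all 9 libraries in one fit, 3 with limma and 9 without a fold-change limit. The relatives were 1 with the GC offset, 1 with at least 1 CPM in 3 libraries, 1 with limma and 5 without a fold-change limit. In SPM compared to CK the GC offset gave 1 general leukocyte gene and the replicate block with that offset 2, and 9 relatives were called without a fold-change limit. The GC offset without SPM replicate 2, chosen after seeing the data, called 0 of the 9 genes, 0 general leukocyte genes, 0 partners and 0 relatives in SPM compared to DCM, where 9, 13, 11 and 9 had an unadjusted p below 0.05 in edgeR, and 0 general leukocyte genes, with 6 at an unadjusted p below 0.05, and 3 partners in SPM compared to CK. The replicate block, run though the numbers showed no clear pairing, called 8 of the 9 genes in DCM compared to CK and 8 in SPM compared to DCM. The cause of these differences was not tested. Groups of 3 libraries, 1 of them close to a blend of the other SPM libraries, limit what these counts can show.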
